A study of Mus musculus with 11 samples.

Results

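The chromosome 10 neighbourhood of L3mbtl3 was followed in 11 RNA-seq libraries of the mouse embryonic brain. Of these, 5 were of the dorsal telencephalon, the part of the forebrain that forms the neocortex, and 6 of sorted brain cells. Members of the neighbourhood were all genes in the count files on chromosome 10 (GRCm38) whose smallest start lay between 21000000 and 29400000, leaving out L3mbtl3 itself. This gave 112 members of 46078 genes counted, and 55 of them were protein-coding. Loss of L3mbtl3 was studied at E12.5 in microdissected dorsal telencephalon, with 2 libraries labelled knockout set against 3 controls, made up of 2 libraries labelled heterozygote and 1 labelled wild-type. Gain of L3mbtl3 was studied in GFP-positive brain cells sorted at E15.5 after in utero electroporation at E12.5, with 3 libraries from pCIG2-L3mbtl3 set against 3 from pCIG2, the plasmid that carries GFP alone. All libraries have the strain label CD-1. The electroporated embryos were labelled wild-type, so neither arm of the gain comparison carries the mutant allele, while both the knockout and the heterozygote libraries do by label. The labels do not describe the construction of the allele, its strain of origin or whether embryos were pooled, and p-values therefore measure the spread between these libraries.

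As background, L3mbtl3 encodes an MBT-domain protein of chromatin, a reader of methylated lysines that works with Polycomb proteins. Genes that lie close to a targeted allele are inherited with it, and a mutant line can keep around the allele the sequence of the animals or embryonic stem cells in which it was made. A difference in a neighbour can therefore follow the chromosome rather than the product of the targeted gene, and neighbours are commonly compared with genes elsewhere for this reason. Counts per gene hold no sequence, so the origin of the chromosome was not tested here. The neighbourhood described here mixes unrelated genes: matrix and adhesion genes such as Lama2 and Ccn2, transcription factors such as Myb and Eya4, the ribosomal protein gene Rps12, a cluster of trace amine receptors, and the Raet1 and H60 genes, whose products are ligands of the NKG2D receptor of natural killer cells.

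L3mbtl3 had 67.2 and 70.4 CPM (counts scaled to a common library size) in the libraries labelled knockout, against 55.7 and 57.9 CPM in the heterozygotes and 58.2 CPM in wild-type tissue. The label of the knockout libraries was thus not matched by a lower level: L3mbtl3 was higher, by 0.27 (log2, SE 0.0539, edgeR adjusted p = 0.0128), and the call was lost without labelled knockout replicate 2 (adjusted p = 0.0550), with the wild-type library alone as control (0.24, adjusted p = 0.159) and in a fit of all 11 libraries. A count over all exons cannot tell whether part of the gene was removed, so the libraries are called by their labels below. In the gain libraries L3mbtl3 had 1517, 1262 and 898 CPM, against 54.0, 50.3 and 60.2 CPM in the GFP controls. Library totals ran from 16527551 to 26658718 counts. Of the dorsal telencephalon markers checked, Emx1, Emx2, Pax6, Eomes, Tbr1, Neurod6 and Lhx2 summed to 1310 to 1410 CPM in the libraries labelled knockout and 1450 to 1510 CPM in the controls. Of these 7, Emx2 rose (0.29, adjusted p = 0.0162) and Eomes fell (-0.38, adjusted p = 0.000146). All 6 choroid plexus markers checked, with Ttr among them, fell in the libraries labelled knockout. Their summed level was 197 to 207 CPM, against 490 to 572 CPM in the controls. Of 6 ventral telencephalon markers 3 rose. All 6 together summed to 59.2 to 76.9 CPM in the libraries labelled knockout, against 29.2 to 49.3 CPM in the controls. The part of these shifts in the differences described below was not tested, and in bulk tissue fewer cells of a type and less RNA per cell cannot be told apart.

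Of the 112 members, 46 had 0 counts in all 11 libraries, among them all 16 trace amine receptor genes and pseudogenes, a family most of whose members are known as receptors of the olfactory epithelium. A further 31 members had counts but passed the count filter in neither comparison, and the highest count of any of them in a library was 19. The knockout comparison tested 34 members, 28 of them coding, and the gain comparison tested 29. L3mbtl3 lies on the minus strand at chr10:26274468-26375185. Samd3, the nearest tested member, lies on the plus strand at chr10:26229707-26272172, so that the 3′ ends of both genes face each other across a gap of 2296 bases and their promoters lie at the far ends. At the window's edges no tested gene was called: Myb at the low end stood at -0.16 (log2, labelled knockout over controls) and Ahi1 just outside it at -0.06, while Rnf146 at the high end stood at -0.07 and Rspo3 just outside it at 0.21.

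The promoter windows of the 3 members that rose in the libraries labelled knockout and of E030030I06Rik, whose counts differed between carriers and the wild-type library, are shown because these members carry the results. Each runs from 250 bases before to 50 bases after the annotated start on its own strand (RefSeq, GRCm38.p6), and capitals mark CG dinucleotides, which read the same on both strands.
Samd3 (chr10:26229457-26229756, plus strand): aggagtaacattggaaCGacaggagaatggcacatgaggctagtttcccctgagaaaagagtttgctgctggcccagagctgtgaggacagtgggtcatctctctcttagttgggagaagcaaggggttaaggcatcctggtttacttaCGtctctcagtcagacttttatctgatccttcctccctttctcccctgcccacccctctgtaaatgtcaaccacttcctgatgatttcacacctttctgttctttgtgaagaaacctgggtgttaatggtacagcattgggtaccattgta
Echdc1 (chr10:29312916-29313215, plus strand): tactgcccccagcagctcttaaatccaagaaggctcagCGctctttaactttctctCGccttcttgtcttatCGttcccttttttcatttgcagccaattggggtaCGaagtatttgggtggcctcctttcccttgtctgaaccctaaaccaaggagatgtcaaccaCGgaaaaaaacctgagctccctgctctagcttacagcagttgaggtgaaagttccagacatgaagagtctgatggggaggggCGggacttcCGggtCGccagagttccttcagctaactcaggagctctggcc
Sgk1, the start farthest upstream (chr10:21881934-21882233, plus strand): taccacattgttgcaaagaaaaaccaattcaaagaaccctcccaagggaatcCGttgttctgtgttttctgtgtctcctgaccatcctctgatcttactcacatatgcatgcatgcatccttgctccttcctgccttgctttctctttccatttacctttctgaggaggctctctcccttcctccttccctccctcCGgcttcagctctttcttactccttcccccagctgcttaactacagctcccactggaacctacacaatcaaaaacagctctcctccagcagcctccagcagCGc
E030030I06Rik (chr10:22149221-22149520, minus strand): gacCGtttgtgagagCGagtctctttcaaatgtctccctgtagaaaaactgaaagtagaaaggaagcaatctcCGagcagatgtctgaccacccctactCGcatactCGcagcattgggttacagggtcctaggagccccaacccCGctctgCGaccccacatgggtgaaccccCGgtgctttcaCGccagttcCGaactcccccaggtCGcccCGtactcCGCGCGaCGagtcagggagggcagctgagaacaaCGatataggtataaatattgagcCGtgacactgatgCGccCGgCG
The Samd3 window held 2 CG dinucleotides, the Sgk1 window 3, the Echdc1 window 8 and the E030030I06Rik window 21. Across all 32851 windows of this kind the median was 7, with quartiles at 3 and 20. The motif TATAAA, searched on both strands, was found in the E030030I06Rik window and in none of the other 3, while 13.6% of all windows held it. These letters describe the windows alone, and nothing in the counts reads which start was used.

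Against the 3 controls together, the neighbours of L3mbtl3 as a group were called about as often as other genes. Those called were all higher in the libraries labelled knockout. Of the 34 members tested, 3 were called at an adjusted p under 0.05 (8.82%), against 7.41% of all 16361 genes tested, 9.87% of the 709 other chromosome 10 genes and 7.29% of the genes on other chromosomes. The 3 were Samd3, Echdc1 and Sgk1. All rose, where 3.63% of all genes rose and 3.78% fell. In the main edgeR fit no member was called lower, and DESeq2 called none lower either. At an unadjusted p under 0.05, 2 members, Slc2a12 and Arhgap18, were lower with edgeR (5.88%, against 10.9% of all genes). Some alternative edgeR settings called Slc2a12 or Enpp1 lower, as given below. In both directions together 8 members passed the unadjusted threshold (23.5%, against 22.0%), 6 of them higher (17.6%, against 11.1%). The size of the differences was also near that of other genes in this comparison. The median absolute log2 fold change was 0.131 for the members, 0.115 for the rest of chromosome 10 and 0.108 for all genes. Of the members 16 stood above 0 and 18 below. These controls include heterozygotes, which carry the allele by label. Against the wild-type library alone, the labelled knockout gave a median absolute value of 0.195 for the members. The rest of chromosome 10 gave 0.149 and all genes 0.14. For heterozygotes over wild-type the members gave 0.14, the rest of chromosome 10 gave 0.0814 and all genes 0.0817. Both contrasts rest on 1 wild-type library.

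**Figure D1:**
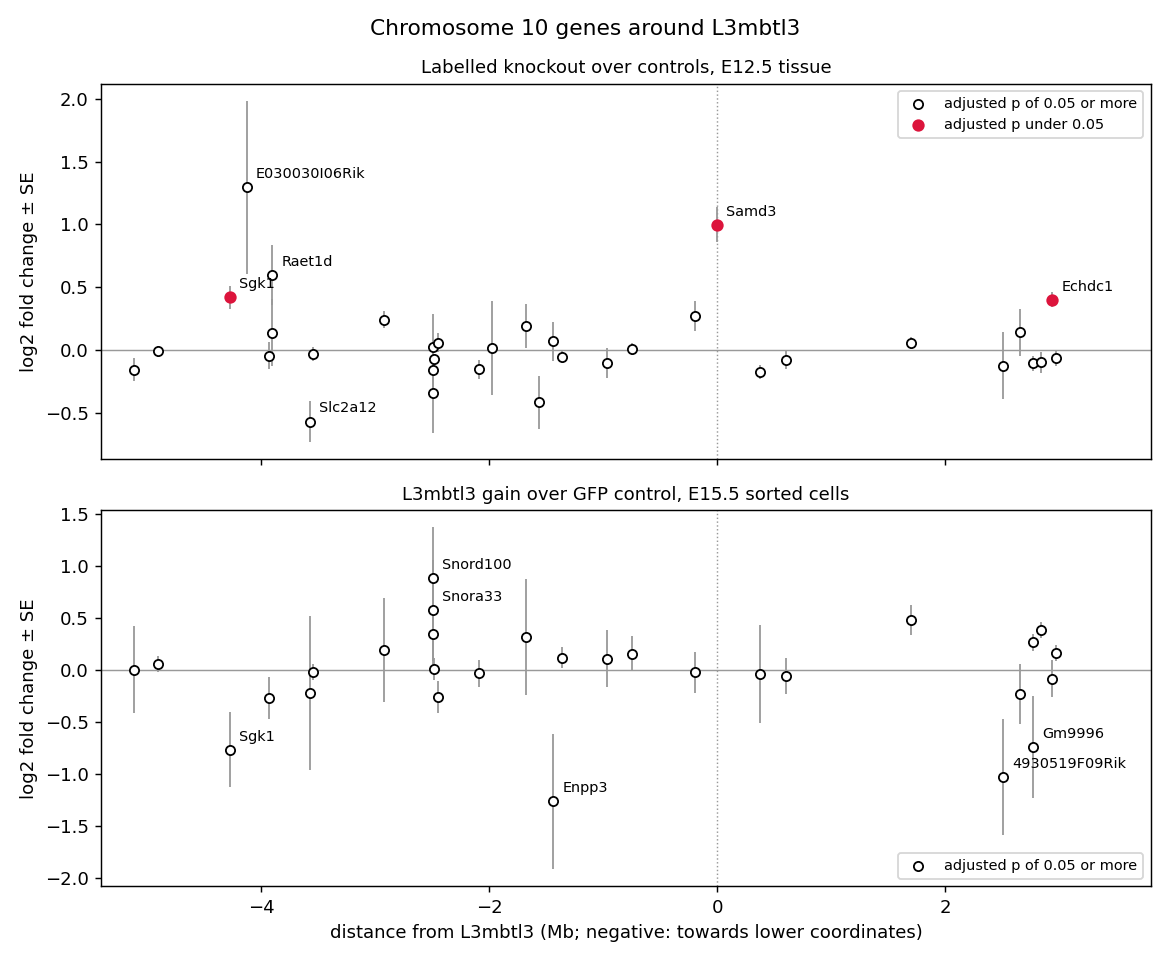
Log2 fold change (with SE) of each tested member against its distance from L3mbtl3 in Mb, for the labelled knockout over controls at E12.5 (34 members, top) and L3mbtl3 gain over GFP control at E15.5 (29 members, bottom). Red points passed edgeR's test over all genes. Samd3 next to L3mbtl3, Echdc1 at 2.94 Mb and Sgk1 at 4.27 Mb on the other side did so in the upper panel and no member in the lower one.

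Members without a call lay between the called ones on both sides of L3mbtl3. Besides Samd3, the nearest was Tmem200a, a transmembrane protein gene 0.195 Mb away, which stood at 0.27 (SE 0.120, edgeR adjusted p = 0.209). On the other side Arhgap18, a GTPase-activating protein gene, lay 0.378 Mb away and stood at -0.17 (SE 0.0585, adjusted p = 0.10). Its levels did not overlap, with 41.6 and 38.9 CPM in the libraries labelled knockout, 47.1 and 45.1 CPM in the heterozygotes and 44.0 CPM in the wild-type library. Among the 8 tested members nearest on each side, 1 was called on each side, Samd3 and Echdc1, where 7.41% of all genes were called. The libraries labelled knockout lay wholly above all 3 controls for 8 members (23.5%, against 18.7% of all genes) and wholly below for 6 (17.6%, against 19.9%). The 8 were Samd3, Echdc1, Sgk1, E030030I06Rik, Raet1d, Eya4, Tmem200a and Ptprk, and the 6 were Slc2a12, Rps12, the small nucleolar RNA gene Gm23130, Med23, Arhgap18 and Soga3.

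**Figure D2:**
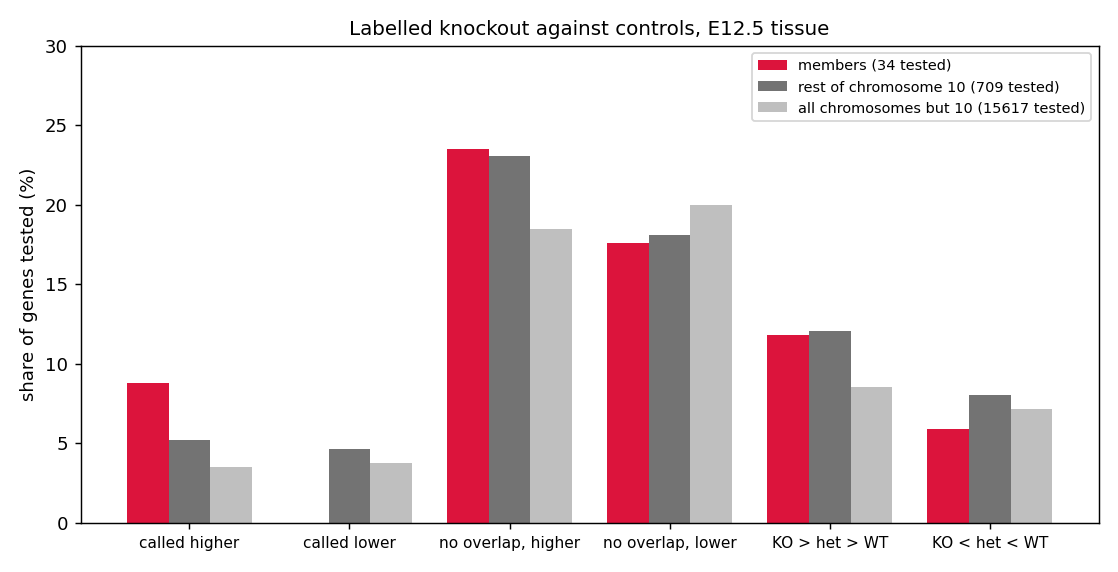
Share of tested genes, in percent, that were called or separated at E12.5, for the 34 members (red), the 709 other chromosome 10 genes and the 15617 genes on other chromosomes. The members' share was 8.82% for genes called higher and 0.0% for genes called lower, and 23.5% and 17.6% for groups that did not overlap. KO, het and WT stand for labelled knockout, heterozygote and wild-type libraries in strict order.

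Samd3 showed the largest of the 3 called differences. The gene encodes a protein with a sterile alpha motif, a domain of protein interaction. It had 9.12 and 9.25 CPM in the libraries labelled knockout, 5.37 and 4.10 CPM in the heterozygotes and 4.17 CPM in the wild-type sample. Both libraries labelled knockout thus lay above every control, and the heterozygotes lay on both sides of the wild-type library. In counts these were 206 and 218, against 158, 75 and 91. Samd3 rose by 1.00 (log2, SE 0.142, edgeR adjusted p = 0.00189). Set against the heterozygotes alone the difference was 0.94 (SE 0.160, adjusted p = 0.00586), and against the wild-type library alone 1.14 (SE 0.208, adjusted p = 0.0109). Heterozygotes over wild-type stood at 0.20 (SE 0.216, adjusted p = 1.00). Of 13 alternative settings 12 kept the call with folds of 0.93 to 1.15, and the fit of all 11 libraries did not (1.01, adjusted p = 0.905). In that fit 0 of 35 members were called (0.0879% of all genes), and 2 reached an unadjusted p under 0.05 (5.71%, against 5.31%).

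Echdc1 encodes an ethylmalonyl-CoA decarboxylase, an enzyme that removes a side product of fatty acid synthesis. Its gene (chr10:29313166-29346661) lies 2.94 Mb from L3mbtl3. The libraries labelled knockout had 42.8 and 40.3 CPM, against 30.8 and 31.9 CPM in the heterozygotes and 31.8 CPM in the wild-type library. The 3 controls lay close together, and both libraries labelled knockout lay above them. Echdc1 rose by 0.40 (SE 0.0594, edgeR adjusted p = 0.00230), with 0.41 against the heterozygotes (SE 0.0713, adjusted p = 0.00608) and 0.38 against the wild-type library (SE 0.0887, adjusted p = 0.0363). Rnf146, the gene of a ubiquitin ligase that recognises poly(ADP-ribose), overlaps the end of Echdc1 on the other strand and did not move with it. It had 59.9 and 60.4 CPM in the libraries labelled knockout, against 59.7, 64.3 and 65.2 CPM in the controls, a difference of -0.07 (SE 0.0578, adjusted p = 0.567). The counts were made by strand, per the file headers.

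Sgk1 encodes a kinase induced by serum and glucocorticoids that regulates ion channels and transporters. It lies at chr10:21882184-21999903, 4.27 Mb from L3mbtl3, and had 15.2 and 15.8 CPM in the libraries labelled knockout, 11.4 and 12.6 CPM in the heterozygotes and 10.9 CPM in the wild-type library. All 5 libraries stood in the order of labelled copies. Sgk1 rose by 0.42 (SE 0.0922, edgeR adjusted p = 0.0185). The fold changed little under 13 alternatives (0.38 to 0.50), but the call held in only 6 of them. It was lost with DESeq2 (adjusted p = 0.0598), with heterozygotes or the wild-type library alone as controls (0.0652 and 0.0693), without heterozygote replicate 1 (0.0516), labelled knockout replicate 2 (0.0945) or the wild-type library (0.0684), and with all 11 libraries in the fit (1.0).

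**Figure D3:**
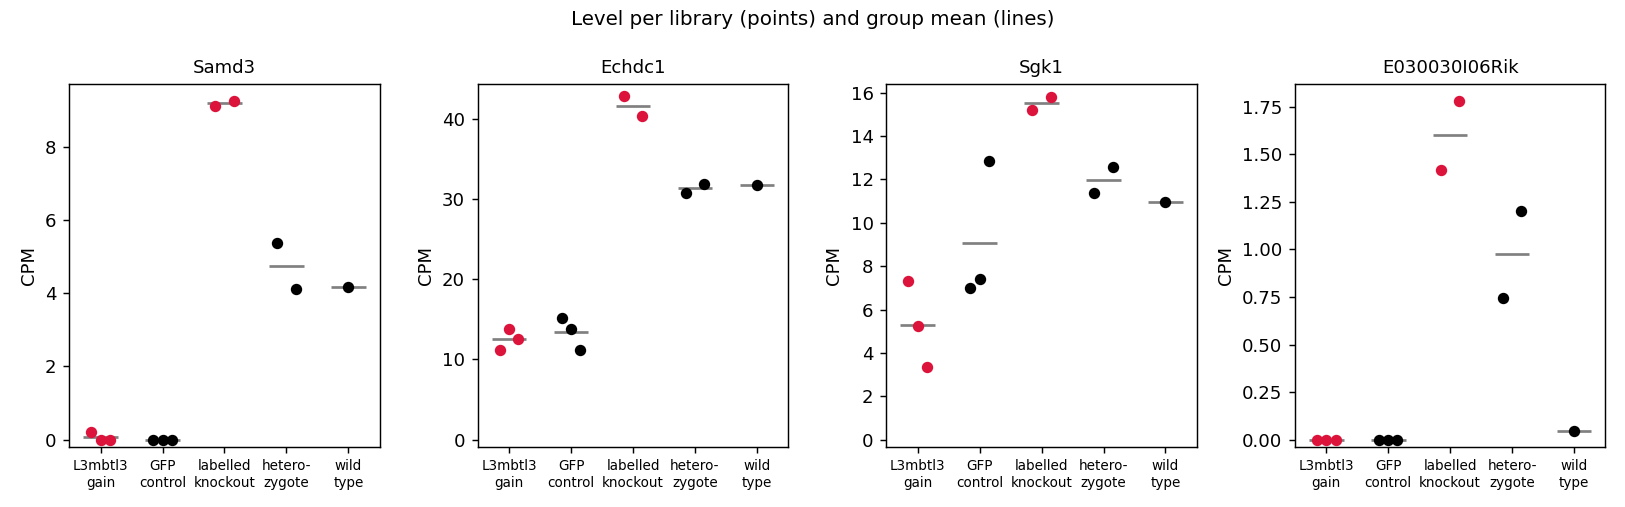
CPM of Samd3, Echdc1, Sgk1 and E030030I06Rik in each of the 11 libraries (points) with group means (lines), for the L3mbtl3 gain, GFP control, labelled knockout, heterozygote and wild-type libraries. The libraries labelled knockout were the highest of the E12.5 libraries in every panel, and E030030I06Rik had 0.0458 CPM in the wild-type library.

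E030030I06Rik, annotated as protein-coding and without a role that could be stated here, had the largest fold change of the tested members between labelled carriers and the wild-type library, at low counts. It lies on the minus strand at chr10:22113050-22149270, beside the Raet1 and H60 genes. Its counts were 32 and 42 in the libraries labelled knockout, 22 and 22 in the heterozygotes and 1 in the wild-type library, and 0 in all 6 E15.5 libraries, where 3 counts correspond to 0.151 to 0.178 CPM. In CPM these were 1.42 and 1.78, against 0.747 and 1.20 in the heterozygotes and 0.0458 in the wild-type library. Both carrier groups were therefore far above the lone wild-type library and did not overlap each other. From summed counts scaled by library size, the labelled knockout was 35.02 times the wild-type library (95% exact interval 6.09 to 1400), and the heterozygotes were 20.1 times it (3.43 to 813). The labelled knockout was 1.74 times the heterozygotes (1.18 to 2.59). These intervals cover counting error only.

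Tests of E030030I06Rik depended on which library served as control. Against the 3 controls together, which themselves spread from 1 to 22 counts, it stood at 1.30 (SE 0.688, edgeR adjusted p = 0.344). Against the wild-type library alone it was called (4.97, SE 0.799, adjusted p = 0.00501), in a fit that assumes the lone library varies like the other groups. Heterozygotes over wild-type stood at 4.2 (SE 0.871, adjusted p = 0.403). Without the filter on low counts it was called against the controls (1.30, adjusted p = 0.00549) and between heterozygote and wild-type (4.2, adjusted p = 0.00181). All contrasts with wild-type rest on 1 library.

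The NKG2D ligand genes next to it were also at low levels. Raet1d had 3.10 and 3.44 CPM in the libraries labelled knockout, 1.80 and 3.06 CPM in the heterozygotes and 1.79 CPM in the wild-type library, and stood at 0.59 (SE 0.240, edgeR adjusted p = 0.167). It was called without heterozygote replicate 2 (0.86, adjusted p = 0.0472). H60b was too low for the filter of the comparison with all 3 controls, with 19 and 9 counts in the libraries labelled knockout, 9 and 2 in the heterozygotes and 1 in the wild-type library. In the fit of the 3 genotypes H60b was tested and not called, at 3.58 against the wild-type library (adjusted p = 0.134) and 1.41 against the heterozygotes (adjusted p = 0.289). Without the filter H60b was called against the 3 controls (1.82, adjusted p = 0.0156). Raet1e was level, at 1.15 and 1.15 CPM in the libraries labelled knockout, against 1.16, 0.985 and 0.961 CPM in the controls (0.14, SE 0.266, adjusted p = 0.825). Exons of Raet1e overlap those of Raet1d and H60b on the same strand, and the family members resemble each other, so that reads of these genes may be split or left uncounted.

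The labelled genotypes also give an order of 0, 1 and 2 mutant copies. A slope per copy was called for 1 of 34 members, Samd3 (2.94%, against 1.08% of all genes). Its slope was 0.64 per copy (SE 0.121, edgeR adjusted p = 0.0473), and the call was lost without heterozygote replicate 1 (adjusted p = 0.109), labelled knockout replicate 1 (0.177) or labelled knockout replicate 2 (0.159). E030030I06Rik had the steepest slope of the members tested, 1.38 per copy (SE 0.355, adjusted p = 0.0986). That slope was called with DESeq2 (1.61, adjusted p = 0.0142), without the count filter (1.39, adjusted p = 0.00725) and without heterozygote replicate 2 (1.68, adjusted p = 0.0441). The 5 libraries stood in strict order with the labelled knockout highest for 4 members (11.8%, against 8.7% of all genes), namely Sgk1, E030030I06Rik, Raet1d and Eya4, and with it lowest for 2 (5.88%, against 7.22%), namely Slc2a12 and Soga3.

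Between heterozygotes and wild-type, edgeR called 0 of 35 members (0.0295% of all genes were called), and 2 members, E030030I06Rik and Lama2, reached an unadjusted p under 0.05 (5.71%, against 2.96%). DESeq2 also called none. Against the wild-type library alone the labelled knockout differed in 3 of 35 members (8.57%, against 2.98%), E030030I06Rik, Samd3 and Echdc1. Against the heterozygotes alone it differed in 2 of 35 (5.71%, against 3.86%), Samd3 and Echdc1. These comparisons share libraries and are given side by side for that reason.

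Matrix, adhesion and signalling genes made up 9 of the tested neighbours, and 1 of them, Sgk1, rose, where 3.63% of all genes did. Lama2, the laminin alpha 2 chain of basement membranes, had 50.7 and 47.0 CPM in the libraries labelled knockout, 52.2 and 56.1 CPM in the heterozygotes and 46.7 CPM in the wild-type library. These groups overlapped (-0.08, SE 0.0742, edgeR adjusted p = 0.596). Ptprk, a receptor tyrosine phosphatase of cell contacts, had 66.3 and 66.5 CPM in the libraries labelled knockout, against 65.4, 62.8 and 63.4 CPM in the controls (0.06, SE 0.0510, adjusted p = 0.584). Enpp1, which makes pyrophosphate from extracellular nucleotides, had 8.63 and 6.28 CPM, against 7.61, 11.1 and 11.5 CPM in the controls. It stood at -0.42 (SE 0.214, adjusted p = 0.311) and was called lower without the filter on low counts (-0.41, adjusted p = 0.0167) and without heterozygote replicate 1 (-0.60, adjusted p = 0.0479). Of the others, Enpp3, the growth factor gene Ccn2, the kinase anchor gene Akap7 and the membrane skeleton gene Epb41l2 stood between -0.10 and 0.19, none of them called.

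No gene of the transcription group was called among 4 tested, at -0.16 to 0.24. Eya4, a transcriptional cofactor with phosphatase activity, came closest. It had 24.6 and 26.8 CPM in the libraries labelled knockout, 21.6 and 22.3 CPM in the heterozygotes and 21.3 CPM in the wild-type library, and stood at 0.24 (SE 0.0702, edgeR adjusted p = 0.0604). It passed without labelled knockout replicate 1 (0.30, adjusted p = 0.0388) and without the count filter (0.25, adjusted p = 0.0234). Myb, Tbpl1, which encodes a relative of the TATA-binding protein, and the Mediator subunit gene Med23 stood at -0.16, -0.03 and -0.05. The 4 translation genes tested were not called either: Hbs1l, a ribosome rescue factor, stood at -0.01 and Rps12 at -0.07. Snora33 and Snord100, the small nucleolar RNA genes within Rps12, stood at -0.34 and 0.02, though selection of polyadenylated RNA does not measure such RNAs well.

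Among 4 transport genes none was called. Slc2a12, a glucose transporter, had 6.90 and 4.88 CPM in the libraries labelled knockout, 7.61 and 9.08 CPM in the heterozygotes and 9.66 CPM in the wild-type library. The groups did not overlap, and the difference was -0.57 (SE 0.166, edgeR adjusted p = 0.0652). It was called lower without the count filter (-0.56, adjusted p = 0.000987), without heterozygote replicate 1 (-0.67, adjusted p = 0.0454) and without labelled knockout replicate 1 (-0.84, adjusted p = 0.00976). Slc18b1, a vesicular polyamine transporter, stood at 0.06, and Stx7, an endosomal syntaxin, at -0.15. Of the other tested neighbours, Soga3 stood at -0.11, 9330159F19Rik at -0.10, the monooxygenase gene Moxd1 at 0.01, and the pseudogenes Gm5421, 4930519F09Rik and Gm9824 at -0.05, -0.12 and 0.14.

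In sorted E15.5 cells that carried extra L3mbtl3 on a plasmid, no neighbour was called. EdgeR called 0 of 29 members, where 0.0136% of all 14698 genes were called. At an unadjusted p under 0.05 there were 3 members (10.3%, against 8.6% of all genes). All 3 were higher, where 4.92% of all genes were higher and 3.68% lower at that threshold. DESeq2 called 1 of 31 members, 9330159F19Rik, where 0.499% of all genes were called. The median absolute log2 fold change was 0.222 for the members, 0.18 for the rest of chromosome 10 and 0.179 for all genes. The gain libraries lay wholly above the GFP controls for 4 members (13.8%, against 8.99%), namely 9330159F19Rik, Soga3, Ptprk and Rnf146, and wholly below for none (7.55% of all genes). Of these, 9330159F19Rik, Soga3 and Rnf146 lie near the high end of the window.

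9330159F19Rik, a coding gene whose role is not stated here, had 308, 319 and 303 CPM in the gain libraries, against 242, 240 and 235 CPM in the GFP controls. It stood at 0.38 (SE 0.0741, edgeR adjusted p = 0.457), with DESeq2 at 0.39 (adjusted p = 0.0215), and was also called without GFP control replicate 1 (0.41, adjusted p = 0.0438). Soga3 had 310, 318 and 314 CPM in the gain libraries, against 269, 277 and 245 CPM in the GFP controls (0.26, SE 0.0819, adjusted p = 0.533). Ptprk had 212, 212 and 246 CPM, against 144, 198 and 142 CPM in the GFP controls (0.48, SE 0.141, adjusted p = 0.518), and its controls were spread more widely. Rnf146 had 103, 101 and 103 CPM in the gain libraries, against 94.9, 91.0 and 89.9 CPM in the GFP controls (0.16, SE 0.0764, adjusted p = 0.585).

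The 3 genes that rose in the libraries labelled knockout gave no call in the gain comparison. Samd3 had 4, 0 and 0 counts in the gain libraries, against 0 in each GFP control, and was not tested there. Echdc1 had 11.2, 13.8 and 12.6 CPM in the gain libraries, against 15.1, 13.8 and 11.2 CPM in the GFP controls (-0.09, SE 0.179, adjusted p = 0.869). Sgk1 had 7.33, 5.22 and 3.33 CPM, against 6.99, 7.42 and 12.9 CPM in the GFP controls (-0.77, SE 0.359, edgeR adjusted p = 0.585). For both genes the arms overlapped. Summed choroid plexus markers ran from 1.48 to 17.3 CPM in the gain libraries and 9.68 to 20.8 CPM in the GFP controls, and ventral telencephalon markers from 9.03 to 170 CPM and 10.9 to 678 CPM.

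**Figure D4:**
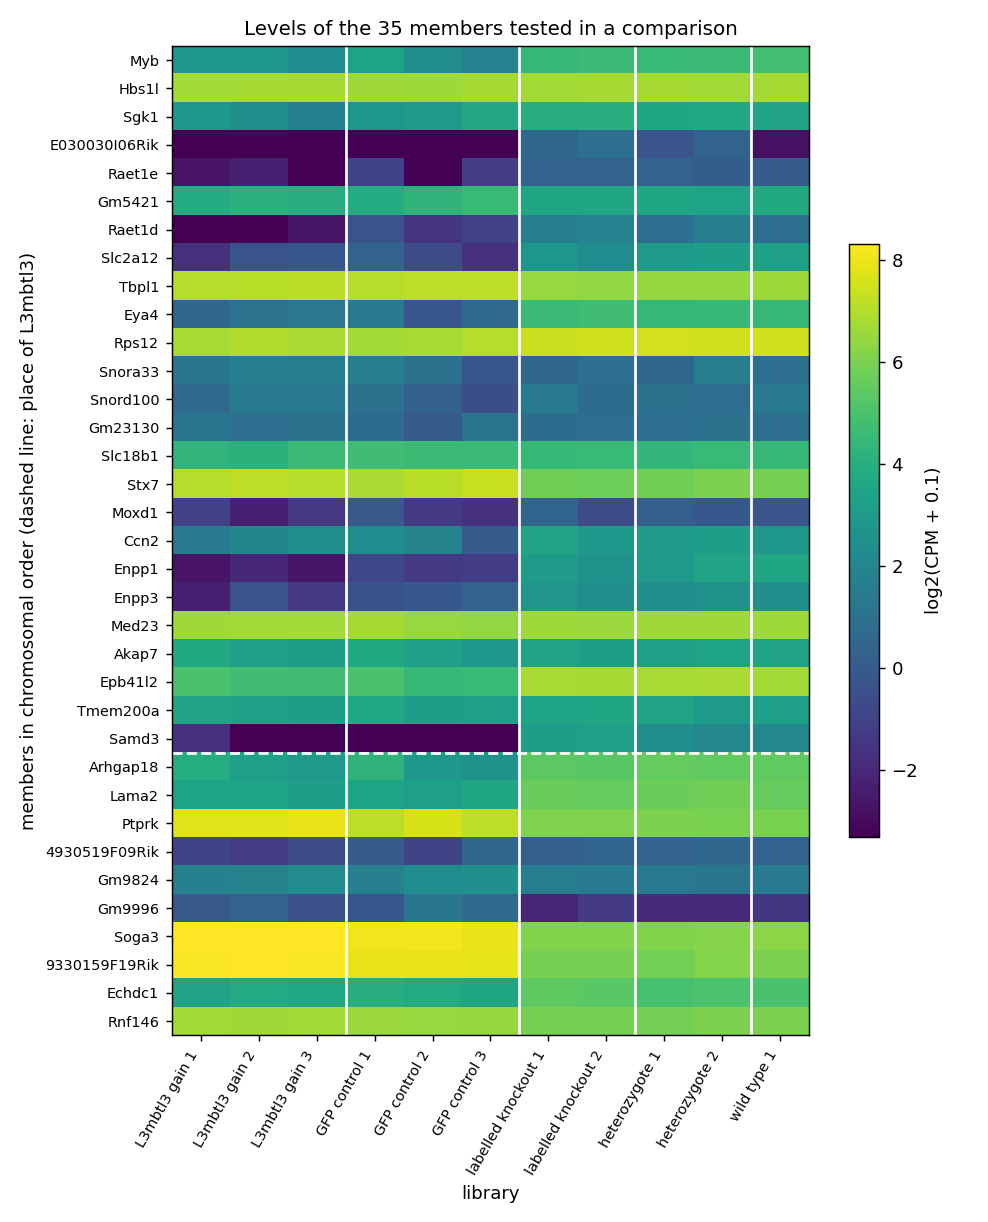
Level of the 35 members tested in the knockout or gain comparison, as log2(CPM + 0.1), in chromosomal order (from top to bottom) and in each library, with L3mbtl3 gain left of GFP control and labelled knockout left of heterozygote and wild-type. The 6 sorted-cell libraries and the 5 tissue libraries differ in many members, as for Soga3 (263.6 CPM in GFP controls, 73.4 CPM in E12.5 controls) and Samd3 (0 and 4.55 CPM).

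The levels of the neighbours also differed between the sorted E15.5 cells and the E12.5 tissue. Stage, sorting and electroporation cannot be told apart in this contrast, and no test was made. Of the 35 members tested in either comparison, the 3 GFP controls lay wholly above the 3 E12.5 controls for 10 (28.6%, against 33.8% of 16754 genes) and wholly below for 15 (42.9%, against 37.5%). Of the 35, 6 passed the count filter only at E12.5 and 1 only at E15.5, so their direction partly follows from the filter. Samd3, E030030I06Rik, Enpp1, Raet1d and Raet1e entered that way among the 15, and Gm9996 among the 10. The 16754 genes were chosen by the same filters. Samd3 and E030030I06Rik had 0 counts in every GFP control. Eya4 averaged 1.69 ± 1.01 CPM in the GFP controls and 21.7 ± 0.474 CPM in the E12.5 controls (SD, n = 3 each). Lama2 averaged 10.6 ± 1.14 CPM in the GFP controls and 51.7 ± 4.73 CPM in the E12.5 controls. Higher in the sorted cells were 9330159F19Rik, at 239.0 ± 3.93 CPM in the GFP controls and 65.1 ± 7.14 CPM in the E12.5 controls, and Ptprk, at 161.5 ± 31.3 and 63.9 ± 1.36 CPM.

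Per kilobase of exon, which allows genes to be compared, Rps12 had the highest level of the tested members in the E12.5 controls, 377 CPM per kb. Of the 3 genes that rose in the libraries labelled knockout, Echdc1 had 12.52 CPM per kb there and 9.49 CPM per kb in the controls. Sgk1 had 3.16 CPM per kb in the libraries labelled knockout and 2.37 CPM per kb in the controls. Samd3 had 2.58 and 1.28 CPM per kb. E030030I06Rik was low, with 0.573 CPM per kb in the libraries labelled knockout and 0.239 CPM per kb in the controls.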

How the data were processed

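Stranded libraries of polyadenylated RNA were read from a single end over 75 bases, per the labels' protocols. The authors deposited unnormalized counts of reads for each gene, made by featureCounts 2.0.1 over exons with reversely stranded counting and without options for multi-mapped or multi-overlapping reads, per the file headers. HISAT2 2.2.1, SAMtools 1.9, CASAVA 1.9, FastQC 0.11.8, deepTools 3.3.0 and GRCm38 are named in the submitters' processing notes. The series' design also names sorted E14.5 cells, which were not analysed here.

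Counts were tested with edgeR 4.0.16 in R 4.3.3 (robust quasi-likelihood fit, TMM factors, filterByExpr), two-sided, with Benjamini-Hochberg adjustment over all genes tested. An adjusted p under 0.05 was a call. The edgeR fits of the knockout and gain comparisons were also run on simulated counts, and the other fits were not. The SE given with a fold change is the absolute log2 value over the root of the F statistic. CPM values use TMM factors of all 11 libraries. Replicates differed by more than sampling noise (chi-square per degree of freedom 3.57 to 86.3), so none was counted as a duplicate. A count of 3 corresponds to 0.102 to 0.178 CPM and covers counting error only, as the labels name no molecular identifiers. Titles and genotype labels gave the groups. The heterozygote against wild-type fit takes its spread from the groups with 2 libraries.

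The members and lists were chosen with earlier results of these data known. The named genes are L3mbtl3, Samd3, called members, the 8 nearest tested members on each side, and tested members of role lists. Genes named for non-overlap, strict order or low counts (Raet1d, H60b, E030030I06Rik among them) were chosen after their values were seen. Choroid plexus, ventral telencephalon, meningeal, endothelial, microglial and erythroid markers were checked, and dorsal telencephalon markers of which 1 is not reported here. Of the meningeal, endothelial, microglial and erythroid lists none had a called gene in either comparison. In the gain comparison all 5 tested ventral, 4 meningeal, 6 endothelial, 5 microglial and 4 erythroid markers were lower, without a call. Alternatives were DESeq2 1.42.0, other size factors, no count filter, other windows, 1 control genotype alone, a joint fit of all libraries, a replicate block and leaving out each library. A symbol was found for 45143 of 46078 identifiers, and 1 member has none. RefSeq windows were matched for 55 members.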

Additional observations from a re-analysis of the deposited data

How the results depend on the processing

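In the knockout comparison 3 members were called. DESeq2 called 2 of 34 (5.88% of all genes). Its size factors in edgeR gave 3 of 34 (7.41%), and library totals only gave 3 of 34 (7.61%). With the heterozygotes alone as controls 2 of 35 were called (3.86%). A window of 2 Mb around L3mbtl3 held 1 of 11 tested (Samd3), and a window of 10 Mb held 9 of 82, against 7.41% of all genes; in the wider one Abracl, Rnf217 and Rsph4a fell (-0.305, -0.386 and -0.87) and the others rose. Without the count filter 8 of 64 were called, against 8.58%. With all 11 libraries in 1 fit 0 of 35 were called (0.0879% of genes, and 2 members at an unadjusted p under 0.05, 5.71%, against 5.31%); the cause was not tested. Leaving out each library gave 2 to 5, the 5 without labelled knockout replicate 1, where 10.6% of all genes were called, and the 2 without labelled knockout replicate 2 or the wild-type library (3.91% and 3.69%). In the gain comparison DESeq2 called 1 member (0.499% of all genes), and leaving out each library 0 to 1, the 1 without GFP control replicate 1, where 415 genes were called over all genes tested, against 2 with every library. Per mutant copy 1 member was called, 2 with DESeq2 (3.55% of all genes), 6 of 64 without the filter (3.86%), and 0 to 2 with each library left out (0 to 3.69%). The contrast of heterozygote and wild-type rests on 1 wild-type library. There E030030I06Rik stood at 4.2 both with and without the filter. Over all genes the knockout calls were 1213, with 15 in the joint fit, 2266 without the filter and 603 to 1785 with each library left out. Of 1375 values of single members under alternatives, 1343 kept their direction or stayed uncalled, 12 lost a call, 20 gained a call and 0 turned a call round. Of 1307 uncalled in both, 75 changed sign.

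With the replicate number as a block, 3 members were called in the knockout comparison and 0 in the gain comparison (948 and 3 over all genes). Whether the numbers pair the samples was not settled. Correlations of same-numbered deviations were 0.168, -0.00575 and 0.255 for gain and GFP control. Over the genes of the gain comparison, gain replicates 1 and 3 correlated best with the GFP control of their own number (0.181 and 0.284). Gain replicate 2 correlated best with GFP control replicate 1 (0.133). For labelled knockout and heterozygote the correlation was -0.0134. With 2 libraries in each group the deviations mirror each other, so this is a single value.

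The wild-type group is 1 library, and the libraries labelled knockout are 2, so a difference that sets wild-type apart has no replicate check. The label of the knockout libraries had no lower L3mbtl3 count beside it, and directions assigned to that genotype rest on the label. In the gain comparison L3mbtl3 itself was no longer called without GFP control replicate 2 (4.42, adjusted p = 0.0539).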

Other observations

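A search for presence and absence was added after the counts of E030030I06Rik had been seen. Among all 46078 genes, 1 had at least 10 counts in each labelled carrier of the allele, both knockout and heterozygote, and at most 1 in the wild-type library, and this was E030030I06Rik. The reverse pattern was found for 3 genes, all on other chromosomes. Otp, a homeobox gene of the hypothalamus, had 0 counts in each carrier and 12 in the wild-type library. Tex13b had 0 counts in each carrier and 13 in the wild-type library. Gm9008 had 1, 0, 1 and 0 counts in the carriers and 84 in the wild-type library. It also had 68, 32 and 24 counts in the L3mbtl3 gain libraries, against 0 in each GFP control, which are labelled wild-type. No gene had at least 10 counts in both libraries labelled knockout and at most 1 in every control. Gas2l2 had the opposite pattern, with 1 and 1 counts in the libraries labelled knockout, 15 and 12 in the heterozygotes and 14 in the wild-type library.

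The unnamed identifier ENSMUSG00000104090 in the same stretch of chromosome 10 had 7 and 10 counts in the libraries labelled knockout, 3 and 4 in the heterozygotes and 0 in the wild-type library. The microRNA gene Gm27754, which is also a member, had 7 and 5 counts in the libraries labelled knockout, 3 and 1 in the heterozygotes and 1 in the wild-type library. It lies within L3mbtl3 on the same strand (chr10:26356732-26356857), so it is not a separate neighbour. Whether its reads come from L3mbtl3 RNA was not tested. ENSMUSG00000104090 and Gm27754 were both too low for the count filter, and these values were picked out after they had been seen.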
